A study of Homo sapiens with 6 samples.

Results

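The glutathione transferases described here were chosen by gene symbol: GSTM1, GSTM2, GSTM3 and GSTM4 of the mu class, GSTP1 of the pi class, GSTO1 of the omega class, GSTA4 of the alpha class, and the membrane-bound MGST1, MGST2 and MGST3. Of these 10 genes, 9 had a probe set, out of 11963 genes with a value, and MGST1 was not analysed here. The 9 genes were read by 11 probe sets of 22215, with 2 each for GSTM1 and GSTM4. The group was drawn up because GSTM3 was already known to stand far apart between these lines, so differences between the lines in these genes are given as a description, and no p-value is reported for them. RNA was measured on 6 Affymetrix arrays, 3 of T98G and 3 of U87MG. Both are established human glioblastoma cell lines grown in DMEM with fetal bovine serum, and the labels name no treatment or genetic change for either. The labels describe T98G as prone to apoptosis from bortezomib and from the isopeptidase inhibitor G5, and U87MG as protected from that apoptosis but prone to necrosis from G5. Each side of the comparison is a single cell line, and nothing in the labels says that its arrays came from different cultures. The p-values therefore speak only to variation among these arrays, which may be technical.

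Glutathione transferases join the tripeptide glutathione to reactive, electron-poor compounds, which makes the compounds more soluble and prepares them for export. The soluble enzymes work as pairs of subunits and are sorted into classes by sequence, while the microsomal enzymes sit in membranes and also act on fatty acid hydroperoxides and leukotrienes. In the brain the family is best known from astrocytes, and in tumours it is studied for its part in handling alkylating drugs.

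The measured mu genes lie in 1 cluster on chromosome 1, in the order GSTM4, GSTM2, GSTM1, GSTM5 and GSTM3 in RefSeq, with GSTM3 on the opposite strand. GSTM3, GSTM1, GSTM2 and GSTM4 are shown because they are neighbours whose readings went different ways between the lines. The 250 bases before the RefSeq start of each gene are given 5′ to 3′ on the gene's own strand, with GC boxes (GGGCGG on either strand) in capitals. Sequences and positions are those of RefSeq on GRCh38.p14, at chr1:109741039-109741288 (minus strand) for GSTM3, chr1:109687567-109687816 (plus) for GSTM1, chr1:109667807-109668056 (plus) for GSTM2 and chr1:109655849-109656098 (plus) for GSTM4.
GSTM3: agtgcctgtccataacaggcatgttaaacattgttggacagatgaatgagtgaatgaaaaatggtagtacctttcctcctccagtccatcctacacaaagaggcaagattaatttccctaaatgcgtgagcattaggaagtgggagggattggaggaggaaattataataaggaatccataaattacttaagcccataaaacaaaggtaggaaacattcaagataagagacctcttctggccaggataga
GSTM1: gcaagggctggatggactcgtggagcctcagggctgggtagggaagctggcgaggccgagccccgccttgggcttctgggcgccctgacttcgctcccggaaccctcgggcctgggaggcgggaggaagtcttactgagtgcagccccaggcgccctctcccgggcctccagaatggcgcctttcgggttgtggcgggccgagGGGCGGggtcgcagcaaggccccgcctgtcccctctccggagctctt
GSTM2: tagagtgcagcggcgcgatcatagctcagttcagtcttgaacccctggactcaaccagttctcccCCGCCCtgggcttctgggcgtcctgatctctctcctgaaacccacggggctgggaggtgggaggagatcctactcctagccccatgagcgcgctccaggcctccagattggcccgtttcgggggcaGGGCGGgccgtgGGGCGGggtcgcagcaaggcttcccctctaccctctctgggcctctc
GSTM4: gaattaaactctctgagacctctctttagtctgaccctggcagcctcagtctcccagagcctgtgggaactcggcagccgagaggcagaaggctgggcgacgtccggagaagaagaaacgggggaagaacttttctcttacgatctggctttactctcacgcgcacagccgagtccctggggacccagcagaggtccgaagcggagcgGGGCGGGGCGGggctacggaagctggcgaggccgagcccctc

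The GSTM3 window differed in composition from those of its neighbours. It had a GC content of 40.0% and 1 CpG, against 71.2% and 19 CpGs for GSTM1, 65.6% and 14 for GSTM2 and 62.4% and 18 for GSTM4. Over 35114 RefSeq promoter windows of the same length the median was 58.0% GC and 11 CpGs, and 14.7% of the windows held no more CpGs than that of GSTM3. GC boxes numbered 1 before GSTM1, 3 before GSTM2, 2 before GSTM4 and 0 before GSTM3, and 42.6% of all windows held at least 1. The windows of GSTM1 and GSTM2 were identical at 68.1% of aligned positions, with a longest shared run of 21 bases that spans a GC box. That of GSTM3 shared 38.5% of positions with GSTM1, 41.8% with GSTM2 and 40.0% with GSTM4, and no exact run longer than 9 bases with these 3. The GSTM4 window was itself identical to those of GSTM1 and GSTM2 at only 45.0% and 49.1% of positions, so a low identity was not particular to GSTM3. It did share an exact run of 23 bases with GSTM1, and one of 9 with GSTM2. Such matches describe letters only, and no binding or methylation was measured. Which start of transcription these lines use was not tested either.

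GSTP1 is shown next because it carries the antioxidant response element core, the letters TGACNNNGC read on either strand, which is the kind of site bound by the transcription factor NRF2. The window lies at chr11:67583562-67583811 (plus strand), and the match, TGACTCAGC, is in capitals.
GSTP1: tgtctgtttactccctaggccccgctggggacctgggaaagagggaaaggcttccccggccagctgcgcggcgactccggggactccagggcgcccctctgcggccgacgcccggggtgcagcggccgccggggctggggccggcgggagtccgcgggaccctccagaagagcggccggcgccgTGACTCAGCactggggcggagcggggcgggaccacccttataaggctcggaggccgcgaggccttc

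That match begins 66 bases before the start and overlaps an AP-1 site (TGANTCA). The core was also found 2 times before GSTO1, once before GSTA4 and once before GSTM1, and not in the windows of GSTM2, GSTM3, GSTM4 or MGST3. Genes with the core did not share a direction: GSTP1 read lower in U87MG, short of 2-fold, and GSTO1, GSTA4 and GSTM1 read higher. Whether any of these sites is used was not tested, and nothing is read from the directions. Over all windows, 10.9% held this core and 6.57% the AP-1 site. The xenobiotic response element core GCGTG, read by the aryl hydrocarbon receptor, had 1 match each before GSTM3, GSTM4 and MGST3, against 32.2% of all windows. The TATA box letters TATAAA had 1 match, before GSTO1, against 10.7% of all windows. It lay on the strand opposite to the gene, 216 bases before the start, so it is not shown to be a working TATA box. Windows were given for 8 of the 9 measured genes.

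Over probe sets the correlation was 0.991 to 0.997 between arrays of 1 line and 0.934 to 0.938 across the lines. U87MG replicate 3 had the lowest mean over 24 poly-A labelling control probe sets, 5.30 on the log2 scale against 6.10 to 6.84 elsewhere, and its part in the results was not tested beyond leaving it out. As a check of the cell type, 2 of 8 glial and glioma line markers, VIM and CD44, were above the median of all probe sets (7.63) in both lines. GFAP, the astrocyte filament, read 6.42 ± 0.04 in T98G and 6.52 ± 0.04 in U87MG (SD, n = 3 arrays per line throughout). NES, a progenitor filament, was higher in U87MG by log2 2.55 (limma adjusted p = 7.55e-07). The 8 markers of blood, endothelial, epithelial and liver cells had means of 4.28 to 6.84. Their summed level was 42.4 to 43.3 in T98G and 43.6 to 44.3 in U87MG. SOX2, S100B, OLIG2 and FABP7, also on the glial and glioma line list, had means of 4.13 to 6.29. Like GFAP, they read no higher than the markers of other cell types reached, so these readings do not show a glial identity. The TrpnX control probe sets, which have no matching transcript, reached 4.03 at most, and every marker reading of both lists was above that. Some were barely so: S100B read 4.04 on T98G replicates 2 and 3, and ALB 4.06 on T98G replicate 2. None of the 8 markers of other cell types was called. Of the 8, EPCAM, an epithelial marker, was higher on every U87MG array by log2 0.89 (limma adjusted p = 0.00161), short of 2-fold, and its part in the results was not tested. Levels are the deposited log2 values, differences are U87MG minus T98G, and a call requires both an adjusted p below 0.05 and a difference of 2-fold or more.

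GSTM3 was the member with the widest gap between the lines. This mu enzyme, known for its expression in brain and testis, read 11.95, 12.21 and 11.98 on the T98G arrays and 5.10, 5.11 and 5.48 on the U87MG arrays. Every T98G array was high and every U87MG array low, with 6.47 log2 units between the nearest arrays. The means were 12.05 ± 0.14 and 5.23 ± 0.21, a log2 difference of -6.81 (SE 0.13), or 113-fold. Among the 22215 probe sets, this was the 7th furthest below 0. Without U87MG replicate 3, the highest of its line, the difference was 123-fold. The U87MG readings stayed above 4.03. Their mean still lay within 4.28 to 6.84, the range of the markers of blood, endothelial, epithelial and liver cells. How much of the U87MG reading is background was not tested, and the fold may depend on it. A single probe set reads GSTM3, and its identifier ends in _s_at, which marks probes that may match more than 1 transcript. In cultured lines, fewer expressing cells and less RNA per cell cannot be told apart.

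The neighbouring mu genes did not share that direction. GSTM1, a mu enzyme with broad activity toward electrophiles, had readings of 8.34, 8.41 and 8.32 in T98G and 9.47, 9.16 and 9.77 in U87MG on 1 probe set (204550_x_at). Its lines did not overlap, and the difference was log2 1.11 (SE 0.15), or 2.16-fold higher in U87MG. Its other probe set (215333_x_at) read 8.68, 8.63 and 8.71 against 9.46, 9.42 and 9.98, also without overlap, a difference of log2 0.95. The 2 GSTM1 probe sets thus fell on either side of the 2-fold minimum. GSTM2, which also conjugates oxidation products of dopamine, read 9.05, 8.98 and 9.15 in T98G and 9.96, 9.83 and 10.27 in U87MG, again higher on every U87MG array, by log2 0.96 (SE 0.13).

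On all 3 probe sets of GSTM1 and GSTM2, U87MG replicate 3 was the highest array and U87MG replicate 2 the lowest. Without U87MG replicate 3 the differences were log2 0.96 and 0.77 for GSTM1 and 0.83 for GSTM2, so the first GSTM1 probe set was no longer past 2-fold. GSTM4, a further mu enzyme, had overlapping lines on both of its probe sets. The first (204149_s_at) read 7.77, 7.69 and 7.71 in T98G and 8.10, 7.42 and 7.98 in U87MG, a difference of log2 0.11 (SE 0.17). The second (210912_x_at) read 7.30, 6.90 and 7.03 against 7.54, 6.98 and 7.24, a difference of log2 0.18 (SE 0.16). In both cases the U87MG arrays lay on either side of the T98G mean.

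No GSTM probe set was listed under more than 1 gene, but 4 of the 11 identifiers end in _x_at, all of them for GSTM1, GSTM2 or GSTM4, and mark probes that may match other genes. How much of 1 mu transcript the probe sets of another read was not tested here. Whether the GSTM1 and GSTM2 probe sets, with differences of log2 1.11, 0.95 and 0.96, read separate transcripts was likewise not tested. GSTM5, the remaining gene of the cluster, is read by 1 _s_at probe set and had a difference of log2 0.07 (95% interval -0.25 to 0.39).

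**Figure D1:**
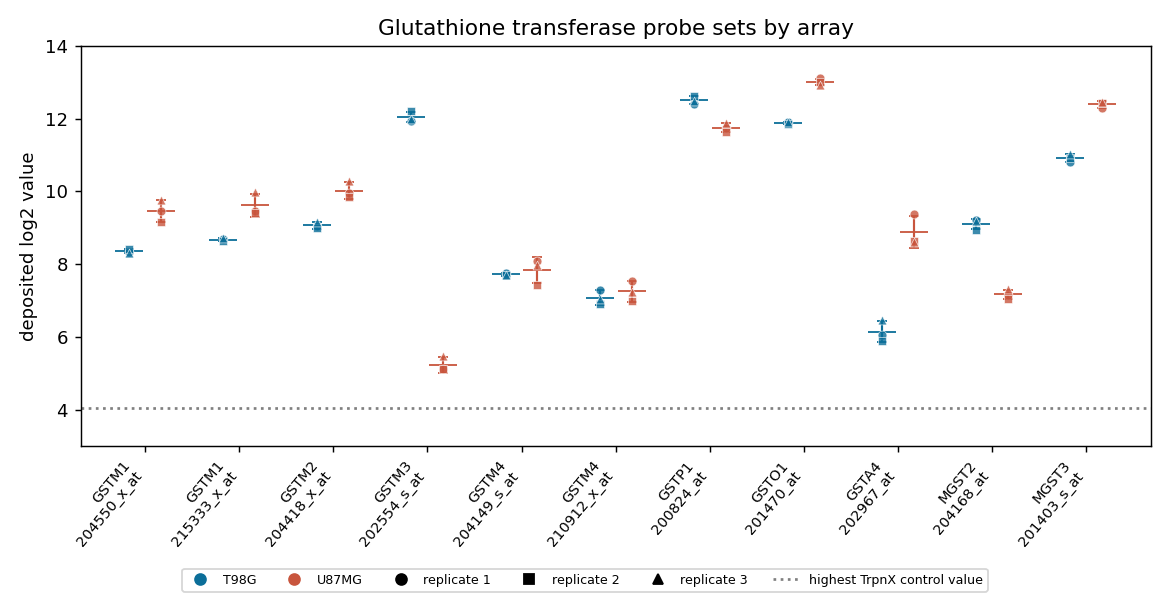
Deposited log2 values of the 11 glutathione transferase probe sets on each array (vertical axis), with T98G in blue, U87MG in red, a symbol per replicate, horizontal bars for the means and whiskers for the SD (n = 3). GSTM3 averages 12.05 in T98G and 5.23 in U87MG, GSTA4 averages 6.14 and 8.88, and only the 2 GSTM4 probe sets overlap between the lines. The dotted line is the highest TrpnX control value, 4.03.

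GSTP1, the pi enzyme that is the leading transferase of many tumours, read 12.40, 12.62 and 12.49 in T98G and 11.75, 11.63 and 11.88 in U87MG. All U87MG arrays were lower, by a mean of log2 -0.75 (SE 0.11), or 1.68-fold. GSTO1, an omega enzyme that reduces dehydroascorbate and mixed disulfides, went the other way, with 11.90, 11.85 and 11.91 in T98G and 13.11, 13.00 and 12.94 in U87MG. Its arrays were tightly grouped in each line (SD 0.03 and 0.09), and it was 2.19-fold higher in U87MG (log2 1.13, SE 0.10).

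GSTA4, the alpha enzyme that clears 4-hydroxynonenal from lipid peroxidation, was the member furthest higher in U87MG. It read 6.06, 5.90 and 6.47 in T98G and 9.38, 8.65 and 8.61 in U87MG, without overlap and with the widest spread of any member in U87MG (SD 0.44). The difference was log2 2.73 (SE 0.22), or 6.65-fold. U87MG replicate 1 stood above the other two, and the difference without it was log2 2.48.

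The 2 measured microsomal enzymes went opposite ways. MGST2, which can make leukotriene C4, read 9.20, 8.94 and 9.17 in T98G and 7.15, 7.05 and 7.31 in U87MG, lower on every U87MG array by log2 -1.94 (SE 0.12), or 3.83-fold. MGST3, a glutathione-dependent peroxidase, read 10.82, 10.93 and 11.03 in T98G and 12.29, 12.43 and 12.47 in U87MG, higher on every U87MG array by log2 1.47 (SE 0.11), or 2.77-fold.

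Over the 11 probe sets, 4 (for GSTM1, GSTO1, GSTA4 and MGST3) passed the call threshold as higher, 2 (for GSTM3 and MGST2) as lower and 5 as neither, where 12.3% of all probe sets were called, 5.93% higher and 6.33% lower. The lines did not overlap on 9 of the 11, 6 higher and 3 lower in U87MG, against 49.1% of all probe sets (23.0% higher and 26.1% lower). Because these genes were gathered with GSTM3's difference in view, these counts are no test of them, and nothing is read from the shares. The median difference of the 11 was log2 0.95, beside -0.01 over all probe sets. U87MG replicate 3 was the highest of its line on 7 of the 11 probe sets, and on 35.4% of all probe sets.

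The genes around the mu cluster were compared to see how far the GSTM3 difference extended along the chromosome. Of the 10 nearest genes with a value on each side, 0 were called higher, 2 lower and 18 neither, where limma called 13.6% of all genes, 6.56% higher and 7.01% lower. EPS8L3, the next gene after GSTM3, read 6.34 ± 0.08 in T98G and 6.34 ± 0.16 in U87MG. CSF1, the macrophage growth factor gene 2 genes from GSTM3, was 2.59-fold lower in U87MG (11.49 ± 0.15 against 10.12 ± 0.27, limma adjusted p = 5.37e-05), with its 4 probe sets at log2 -1.87 to -0.62. SLC16A4, a monocarboxylate transporter gene 6 genes from GSTM3, read 9.24 ± 0.39 in T98G and 4.20 ± 0.20 in U87MG. With 1 U87MG array under 4.03 set to that value, it was at least 32.7-fold lower (limma log2 -5.04, SE 0.19, adjusted p = 4.02e-08). The median of the 20 genes was log2 -0.03, and on the GSTM4 side the 3 nearest, GNAI3, GNAT2 and AMPD2, had differences of 0.07, 0.00 and -0.38.

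**Figure D2:**
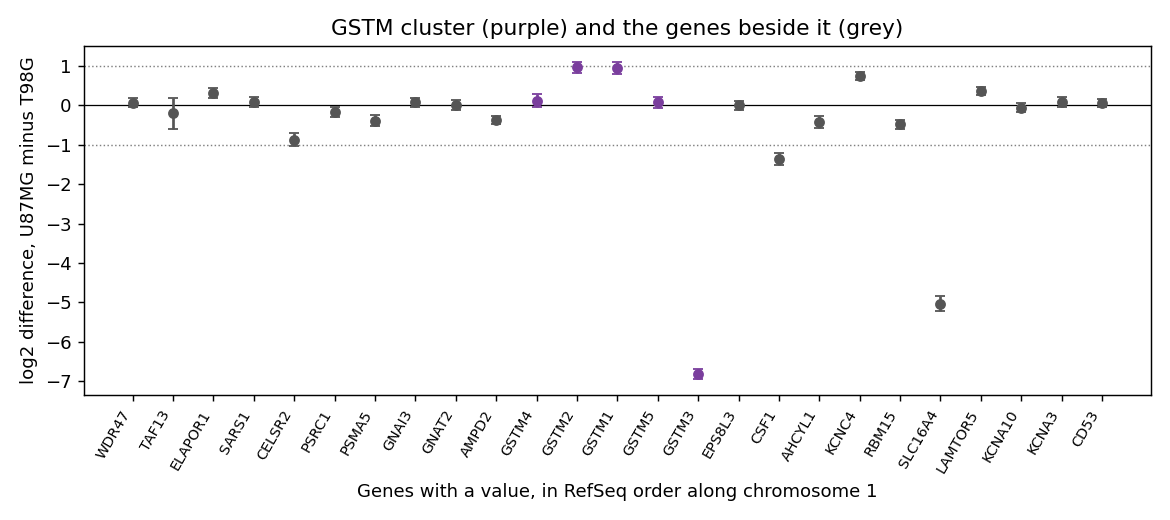
Log2 difference, U87MG minus T98G (vertical axis), of the 5 genes of the GSTM cluster (purple) and the 10 genes with a value on each side (grey), in RefSeq order along chromosome 1, each on its brightest probe set, with the SE of the limma fit (n = 3 arrays per line). Dotted lines mark 2-fold. GSTM3 at -6.81 lies far below GSTM2 (0.96), GSTM1 (0.95) and EPS8L3 (0.00), and SLC16A4 at -5.04 is the other low point.

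The 5 genes whose profile over the 6 arrays was most like that of GSTM3 were TNFRSF11B, PDGFD, NXN, COLEC12 and THBS1. Likeness was the root mean square distance between values centred on each gene's own mean, which was 0.26 log2 units for TNFRSF11B and 0.34 to 0.41 for the others, and 0.48 for the next of the 11962 genes compared. All 5 are among the genes furthest lower in U87MG, with log2 differences of -6.83 (TNFRSF11B) to -6.06 (THBS1), so the measure mostly restates the size of that difference. The 5 THBS1 probe sets ran from log2 -7.88 to -0.66.

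The transferases depend on a supply of glutathione, on exporters of the conjugates and on shared regulators. Genes of these kinds made up part of 6 lists. The other lists held related transferases, enzymes that use glutathione or act in related redox reactions, and other phase II and quinone enzymes. In all, 81 genes of the 6 lists were measured apart from the members, and they are called pathway genes below. Of these, 6 were called higher, 19 lower and 56 neither by limma, against 6.56% and 7.01% of all genes. At any fold, 19 higher and 31 lower genes of the 81 passed the adjusted p, where 41.3% of all genes did, and 25 of these fell short of 2-fold. Their median difference was log2 -0.10, beside -0.01 over all genes. The lists share antioxidant genes already known to be lower in U87MG, so their direction is not independent evidence.

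Among 19 other transferases and relatives with the transferase fold or membrane family, 2 were higher, 1 lower and 16 neither (median log2 0.19). GSTZ1, the zeta enzyme of tyrosine breakdown, was 2.67-fold higher in U87MG (9.21 ± 0.27 against 7.80 ± 0.15, limma adjusted p = 4.31e-05). PTGES, a prostaglandin E synthase of the same membrane family as the microsomal transferases, was higher by log2 2.11 on the brighter of its 2 probe sets and by 4.67 on the other. With any T98G array left out the other became the brighter, and the difference was then log2 4.49 to 4.76. CLIC2, a chloride channel protein with the transferase fold, was 4.52-fold lower (4.45 ± 0.33 against 6.62 ± 0.41). GSTT1, a theta enzyme, had log2 0.68 and fell short of 2-fold.

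Glutathione synthesis and recycling genes held 0 higher, 6 lower and 8 neither of 14 (median log2 -0.87). GCLC and GCLM, the subunits of the ligase that limits glutathione synthesis, were lower by 4.80-fold (9.99 ± 0.24 against 12.25 ± 0.06, limma adjusted p = 7.13e-07) and 2.55-fold. SLC7A11, which imports cystine, was 3.62-fold lower (11.03 ± 0.72 against 12.89 ± 0.13), with all 3 of its probe sets called. Its difference was log2 -1.86 with all arrays and -1.46 without U87MG replicate 3. CBS, which feeds cysteine synthesis from homocysteine, had the largest difference of the list (5.52 ± 0.40 against 9.83 ± 0.17, 19.9-fold). GGT5, which cleaves glutathione conjugates, and PGD, a source of NADPH, were 3.73-fold and 2.29-fold lower. GSR, the reductase that restores glutathione, had log2 -0.86 and GSS, the second enzyme of synthesis, 0.35, both with an adjusted p under 0.05 and short of 2-fold.

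Of 9 genes of conjugate export and mercapturate formation, 1 was higher and 2 lower (median log2 -0.29). The exporters ABCC3 and ABCC1 were 9.23-fold and 3.88-fold lower in U87MG on both probe sets of each, and ABCC2 was 2.71-fold higher (8.41 ± 0.19 against 6.97 ± 0.06, limma adjusted p = 8.64e-06). Of 16 genes listed for glutathione-using redox and glyoxalase reactions, 1 was higher and 2 lower (median log2 0.15). The list was drawn broadly and also holds reductases that draw on NADPH, CBR1 among them. The glutathione peroxidase GPX3 was lower by log2 -4.09 on the brighter of its 2 probe sets and by -6.64 on the other, which became the brighter with any U87MG array left out (log2 -6.65 to -6.62). GPX7, a related peroxidase, was 5.14-fold lower, and CBR1, a carbonyl reductase, was 3.29-fold higher.

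Of 11 other phase II and quinone enzymes, 5 were lower and 1 higher (median log2 -0.17). EPHX1, the microsomal epoxide hydrolase, was 11-fold lower (10.34 ± 0.19 against 13.80 ± 0.04), and the quinone reductases NQO2 and NQO1 were 4.52-fold and 2.68-fold lower. The sulfotransferase SULT1A1 was 2.09-fold lower. HNMT, a histamine methyltransferase, just passed at log2 -1.0 on 1 of 4 probe sets, the highest of which had 0.09. UGT8, which makes galactosylceramide, was the gene furthest higher, at 9.67 ± 0.25 in U87MG and 4.33 ± 0.39 in T98G (40.6-fold, limma adjusted p = 3.37e-08).

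Among 12 regulators of transferase genes, 1 was higher and 3 lower (median log2 -0.20). NFE2L2, which encodes NRF2, was 3.49-fold lower in U87MG on its single probe set (10.51 ± 0.52 against 12.32 ± 0.14, limma adjusted p = 0.000132). Its difference was log2 -1.80 with all arrays and -1.52 without U87MG replicate 3. MAFF, a small partner protein of NRF2, was 3.13-fold higher, and AHR, the receptor for aromatic hydrocarbons, 2.11-fold lower, the latter at log2 -0.92 without U87MG replicate 3. RXRA, a nuclear receptor, was lower at log2 -1.09 on 1 of 2 probe sets, the other having -0.13. KEAP1, which holds NRF2 in check, had log2 0.10 (95% interval -0.13 to 0.32).

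**Figure D3:**
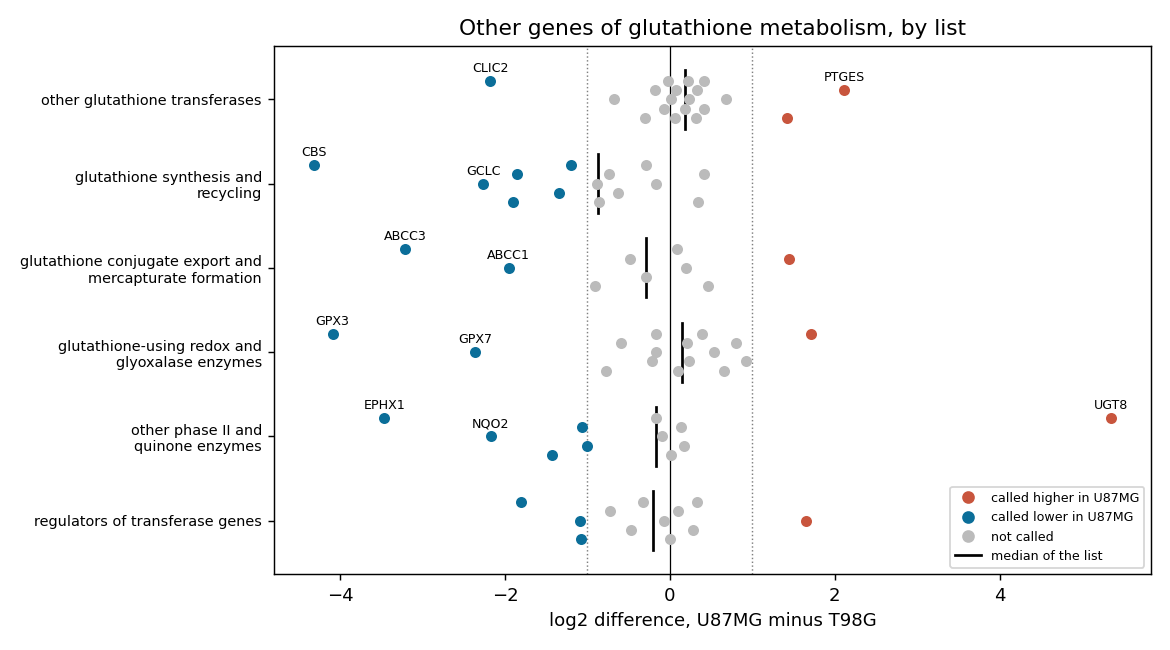
Log2 difference, U87MG minus T98G (horizontal axis), of the 81 measured genes of 6 lists around glutathione, 1 row per list and 1 point per gene on its brightest probe set. Red and blue points were called higher and lower, grey points were not called, black lines are list medians and dotted lines mark 2-fold. The synthesis and recycling row lies furthest to the left, with a median of -0.87, and UGT8 stands alone at 5.34.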

How the data were processed

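Per the labels, each array had biotin-labelled total RNA of 1 line. The values used are the log2 expression that the authors deposited for every probe set. The submitters' processing notes list RMA and limma, and their use is not given in the sources used here. Such normalization evens out array distributions and can thereby mask unequal total RNA and compress dim readings. Array medians were 7.55 to 7.65, and the number of arrays limits the precision. Of 22277 probe sets, 62 controls were left out. Symbols came from the 2016 platform annotation, updated by Entrez identifier from RefSeq for 19052 of 19064 probe sets with 1 listed gene. Another 1043 listed several genes and 2108 none, and these named no gene.

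The lines were compared by limma 3.58.1 in R 4.3.3 (two-sided, Benjamini-Hochberg), over all probe sets for the transferases and over the brightest probe set of each gene otherwise. A call needed an adjusted p under 0.05 and 2-fold. On simulated data for this comparison over 11963 genes, 99 of 100 shifts of log2 1.5 and 100 of 100 of log2 3 were called, with 1 false call.

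The members, lists and settings were chosen with earlier results of these data known. Named genes were every member, all called genes of each list and beside the GSTM cluster, and the 5 profiles nearest to GSTM3. GSTM5, GSTT1, GSR, GSS, KEAP1 and the uncalled genes beside the cluster were named after their values were seen. Promoter windows were aligned with Biopython 1.88. Alternatives were other fold minimums, a filter on dim probe sets, removal of multiply matching probe sets, repeated quantile normalization or centring, an intensity trend with robust variance, a replicate block, averaging of probe sets per gene, and leaving out each array.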

Additional observations from a re-analysis of the deposited data

How the results depend on the processing

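The sign of all 11 transferase probe sets held under repeated quantile normalization, centring of arrays and the replicate block. With each array left out in turn it also held, except that 204149_s_at of GSTM4 ranged from log2 -0.02 to 0.32. The filter on dim probe sets removed 210912_x_at of GSTM4 and kept the other 10 transferase probe sets, and it left CLIC2 and GPX7 without a value, so that 17 pathway genes were lower. A minimum of 4-fold left 1 transferase probe set higher and 1 lower, 2 and 8 of the 81 pathway genes, and 1 gene beside the GSTM cluster. With no fold minimum, 19 pathway genes were higher and 31 lower, and 8 genes beside the cluster were called. Without probe sets whose identifiers mark several matches, 4 transferase probe sets had a value, none of them of the mu class, of which 2 were called higher and 1 lower, and 4 pathway genes were higher and 11 lower. Of the called pathway genes, ABCC3, CBS, GGT5, NQO1, NQO2, PTGES, RXRA, SULT1A1 and UGT8 then had no value. With 1 array left out, called transferase probe sets numbered 3 to 6 higher and 2 lower, pathway genes 6 to 7 higher and 17 to 19 lower, and genes beside the cluster 2 to 3. The count of 3 came without U87MG replicate 3 (204550_x_at of GSTM1 at log2 0.96) and the count of 6 without U87MG replicate 2. Leaving out single arrays added ESD (log2 1.12 without U87MG replicate 3), ABCC4 (-1.03 without U87MG replicate 2) and CELSR2 (-1.01 without T98G replicate 2). HNMT lost its call when any of 4 arrays was left out, at log2 -0.97 to -0.77, under renormalization or centring at -0.98, at -0.32 as the mean of its probe sets and at -0.19 without multiply matching ones. PTGES was at log2 3.39 and GPX3 at -5.36 as the mean of their probe sets. RXRA lost its call as the mean of its probe sets, at -0.61. Same-numbered arrays of the lines shared deviations at r = 0.15, 0.08 and 0.08, each array matching its own number best, which does not establish a pairing. The replicate block changed no count, with 4 transferase probe sets higher and 2 lower, 6 and 19 pathway genes, and 2 genes beside the cluster. Detection calls were not used here, and readings near 4.03 have little room to fall further. The same may hold for means within 4.28 to 6.84, the range of the markers of other cell types, which was not tested. GSTM3, CBS, GPX3, GPX7 and CLIC2 in U87MG and GSTA4 and UGT8 in T98G are among such means.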
